A study of Mus musculus with 461 samples.

Results

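The 10 genes described here are the p53 gene Trp53, its targets Mdm2, Ccng1, Btg2 and Fas, and the cyclin-dependent kinase (CDK) inhibitor genes Cdkn1a, Cdkn1b, Cdkn2b, Cdkn2c and Cdkn2a. They were taken by symbol from an expression table of 31673 genes, and all 10 were present and tested. The table covers 461 single mouse cells captured on the Fluidigm C1 microfluidic system during reprogramming to pluripotency with the factor set that the sample titles call 7F. All cells derive from OG2 transgenic mouse embryonic fibroblasts (MEFs) of mixed 129SVJ, C57B6 and CBA background. OG2 mice are known for a green fluorescent protein gene under Pou5f1 regulatory sequence. Day 0 cells are the fibroblasts, maintained in medium with 10% serum, and cells of days 1, 3, 4, 5 and 7 were reprogramming in iCD1 medium. Which 7 factors were used is left unsaid in the labels; Kdm2b, Jdp2, Map2k6, Glis1, Nanog, Esrrb and Sall4 are those known from the published cocktail.

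The titles also carry a prefix, b1, b2 or b3, whose meaning the labels do not give. Cells that share a day and a prefix are called a set here. Of 10 sets, 8 hold at least 10 cells: day 0 b1 (20 cells), day 0 b2 (54), day 1 b2 (58), day 3 b1 (61), day 3 b2 (58), day 4 b3 (59), day 5 b2 (79) and day 7 b2 (65). The other sets, day 5 b1 with 5 cells and day 7 b1 with 2, entered no main test. The CPM values and orders of sets given below refer to the 8 larger sets. How many of all genes show the same orders was not counted. A cell had a median of 2503000 expected counts (range 318900 to 6999000) and between 6270 and 12141 genes, and day 4 was the shallowest main set, with a median of 982700. Only days 0 and 3 have more than 1 set, so day 4 and prefix b3 cannot be told apart. Nothing in the labels says that the sets are separate cultures or animals, so the spread between sets may be technical. In the main tests a p-value measures that spread as a trend over all genes, from days 0 and 3, not the gene's own. Across these sets the summed level of 8 fibroblast markers was 5040 and 9194 CPM (counts scaled to a common library total) at day 0. It was 1414 CPM at day 1 and 153.7 and 184 CPM at days 5 and 7. The summed level of 8 pluripotent cell markers was 38.35 and 18.16 CPM at day 0, with Dppa3 and Zfp42 at 0 in both sets, and 2238 and 4382 CPM at days 5 and 7. Summed markers of blood cells reached at most 19.87 CPM. Those of endothelial cells were 17.87 and 2.759 CPM at day 0, 24.24 at day 1 and 37.62 and 39.12 at day 3. They were 57.45 at day 4, 32.83 at day 5 and 79.95 CPM at day 7. Among 6 endothelial markers, Emcn and Tek were called higher at days 1, 3, 4 and 5, and Tek and Pecam1 at day 7. Those of neural cells were 44.07 and 21.26 CPM at day 0, 24.71 and 84.44 at day 3, and 42.95 and 117 CPM at days 5 and 7. Among 6 neural markers, Tubb3 was called lower at day 1 and higher at day 7.

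p53 is a transcription factor that is held at low protein levels by the ubiquitin ligase Mdm2 and accumulates after DNA damage or oncogenic stress, largely without a change in its own mRNA. Its targets arrest the cell cycle (Cdkn1a, which encodes p21, and the antiproliferative gene Btg2), feed back on p53 (Mdm2 and Ccng1, which encodes cyclin G1) or sensitise cells to death (the death receptor Fas). The Cdkn1 and Cdkn2 genes encode proteins that block cyclin-dependent kinases, and p53, p21 and the Cdkn2a products are known barriers to reprogramming of fibroblasts.

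A p53 response element consists of a pair of 10-base motifs, here called p53 decamers, and a script searched for single decamers in the 250 bases before each start site in RefSeq (mouse build GRCm38.p6). The decamer is palindromic, so both strands were covered, and 7.13% of all 32851 such windows hold at least 1. Among the 13 windows of the 10 genes, 4 hold one, and these windows are printed with the decamer in capitals because they are the members whose window holds the motif. Mdm2 has its decamer 186 bases before the start (chr10:117710759-117711008, minus strand), Ccng1 185 bases (chr11:40755287-40755536, minus strand) and Trp53 75 bases (chr11:69580109-69580358, plus strand). The window of the first of the Cdkn1a starts holds 2 decamers, 73 and 51 bases before it (chr17:29090729-29090978, plus strand). No decamer was found in the windows of Btg2, Fas, Cdkn1b, Cdkn2a, Cdkn2b and Cdkn2c or of the second Cdkn1a start. A match describes these letters and is not a measured binding site.
Cdkn1a: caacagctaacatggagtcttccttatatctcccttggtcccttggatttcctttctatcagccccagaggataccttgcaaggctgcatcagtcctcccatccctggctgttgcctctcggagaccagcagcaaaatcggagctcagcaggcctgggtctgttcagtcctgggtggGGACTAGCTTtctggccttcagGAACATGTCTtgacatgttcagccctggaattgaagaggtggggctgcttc
Ccng1: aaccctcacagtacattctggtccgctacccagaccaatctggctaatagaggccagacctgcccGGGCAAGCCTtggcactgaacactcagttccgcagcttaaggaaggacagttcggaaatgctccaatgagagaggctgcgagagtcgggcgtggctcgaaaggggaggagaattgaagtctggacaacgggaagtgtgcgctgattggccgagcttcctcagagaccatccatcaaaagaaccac
Mdm2: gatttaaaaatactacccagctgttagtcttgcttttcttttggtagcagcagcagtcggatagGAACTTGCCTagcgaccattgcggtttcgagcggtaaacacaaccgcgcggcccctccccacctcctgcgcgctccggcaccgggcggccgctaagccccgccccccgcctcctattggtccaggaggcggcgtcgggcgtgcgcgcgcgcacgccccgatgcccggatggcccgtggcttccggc
Trp53: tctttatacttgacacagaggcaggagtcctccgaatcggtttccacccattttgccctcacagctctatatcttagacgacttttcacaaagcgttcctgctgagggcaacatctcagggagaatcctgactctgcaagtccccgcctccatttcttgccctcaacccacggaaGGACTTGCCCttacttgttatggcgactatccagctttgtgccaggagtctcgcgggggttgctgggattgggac

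Btg2, Ccng1, Fas and Mdm2 fell between day 0 and day 5, and Btg2 and Ccng1 were still below day 0 at day 7. Trp53 and Cdkn1a differed between days with other courses: in the sums Trp53 was lowest at days 1 and 3 and highest at day 7, and Cdkn1a was highest at day 1 and lowest at days 5 and 7. Cdkn1b, Cdkn2a, Cdkn2b and Cdkn2c passed no test. Expected counts were summed per set, scaled by TMM to CPM and tested over 22378 genes with edgeR's quasi-likelihood test and Benjamini-Hochberg adjustment, with adjusted p under 0.05 as the threshold. By the test of any difference between days, 6 of the 10 genes were called, against 9.28% of all genes tested. With the sets of 5 and 2 cells added as sums of their own, the only call left among the 10 genes was that of Ccng1 at day 7. Over all genes the calls for any difference fell too, from 2076 of 22378 to 270 of 22314. A sum over cells cannot tell fewer cells with a gene from less RNA per cell.

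**Figure D1:**
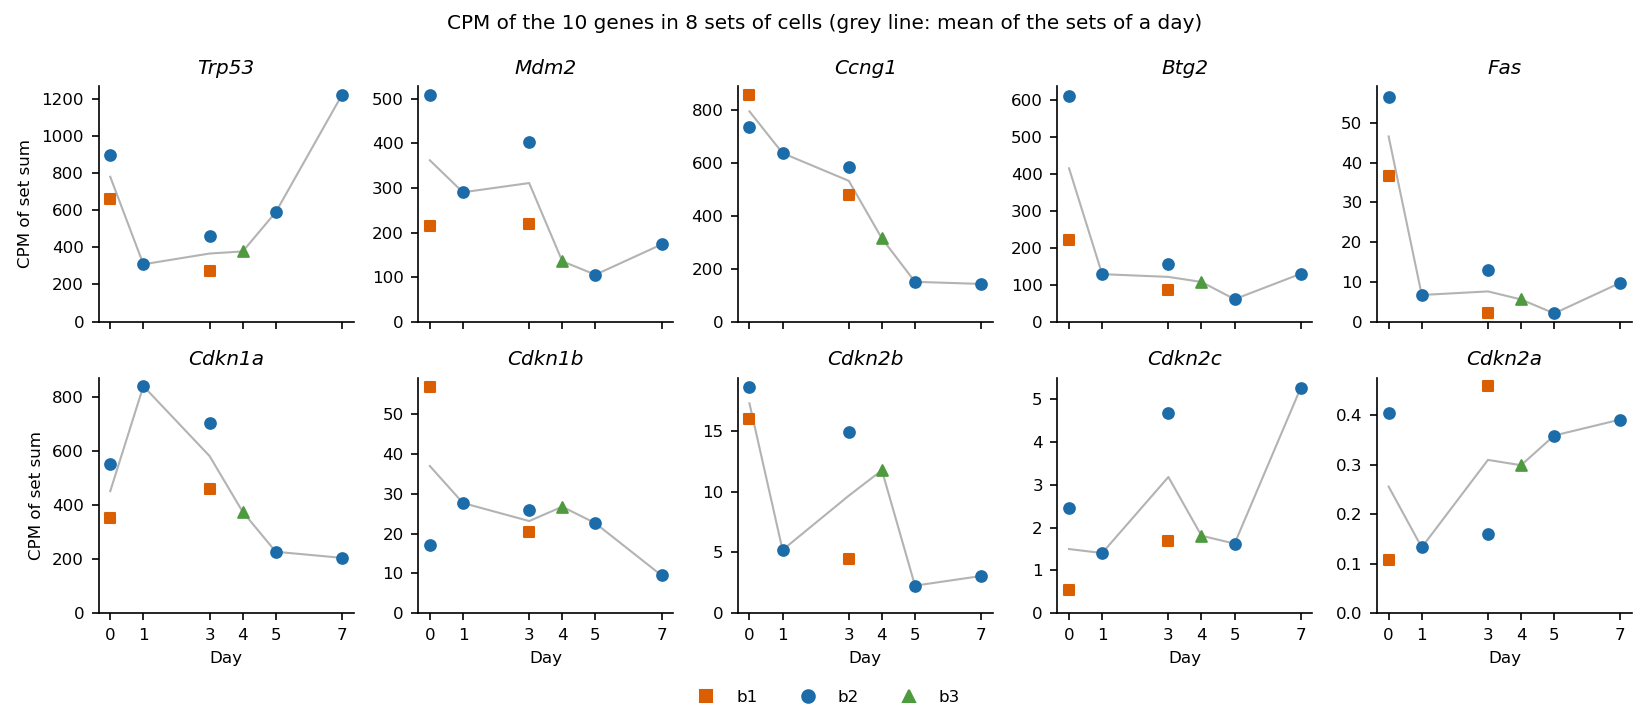
CPM of each of the 10 genes (vertical axes, each from 0) by day (horizontal axis), with 1 point per set of cells, shaped by title prefix, and a grey line through the mean of the sets of a day. Ccng1 stepped down from 854.2 and 733.7 CPM at day 0 to 142.1 CPM at day 7, while Trp53 dipped to 308 CPM at day 1 and reached 1220 CPM at day 7.

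Trp53 was summed at 660.4 (b1) and 897.4 CPM (b2) at day 0, 308 at day 1, 271.4 (b1) and 460.6 (b2) at day 3, 377.2 at day 4, 588.9 at day 5 and 1220 CPM at day 7. Of the 8 sets, those of days 1 to 5 lay below both day 0 sets, and day 7 b2 lay above them. Trp53 differed between days (edgeR quasi-likelihood test, adjusted p = 0.00107), but no single comparison passed. Against day 0 the log2 fold change was -1.34 ± 0.48 (SE; adjusted p = 0.215) at day 1, -1.09 ± 0.37 (adjusted p = 0.0829) at day 3 and 0.65 ± 0.44 (adjusted p = 0.514) at day 7. The day 0 b1 set weighed on this: without it the edgeR value at day 1 was -1.54 (adjusted p = 0.0184) and at day 3 -1.29 (adjusted p = 0.00737). Without the day 3 b1 set the call of any difference was lost (adjusted p = 0.218 by edgeR), as it was without the day 3 b2 set (adjusted p = 0.0626). Trp53 was detected, at a TPM (abundance per transcript length, scaled to a common total per cell) of 1 or more, in 91.8 to 100% of the cells of the 8 sets. Its median TPM per cell was 360.3 (b1) and 504.1 (b2) at day 0, 124.2 at day 1, 163.8 and 254.3 at day 3, 248.4 at day 4, 402.6 at day 5 and 1054 at day 7. By this measure the day 5 set lay between the sets of day 0, where its sum had lain below both. The high day 7 level rests on day 7 b2 alone: the 2 cells of day 7 b1 had a mean of 73.26 TPM, against 1029 in day 7 b2. With all 10 sums the log2 fold change at day 7 turned to -0.26.

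Among the targets that feed back on p53, Mdm2 stood at 215.5 (b1) and 508.9 CPM (b2) at day 0, 290.3 at day 1, 218.2 and 404 at day 3, 135.4 at day 4, 105.2 at day 5 and 173.3 CPM at day 7. The sets of days 4, 5 and 7 lay below both day 0 sets. At day 5 Mdm2 fell by 1.78 ± 0.52 (SE) on the log2 scale against day 0 (edgeR, adjusted p = 0.0176). That call was lost without the day 0 b2 set, where the value was -1.04 (edgeR, adjusted p = 0.23). It was also lost without the day 3 b1 set (adjusted p = 0.0908) or the day 3 b2 set (adjusted p = 0.101), which left the fold change nearly as it was. With all 10 sums the log2 value turned to 0.74 (adjusted p = 0.904): the 5 cells of day 5 b1 had a median of 155.5 TPM, against 19.12 in day 5 b2 and 79.66 and 136.8 in the sets of day 0, and 1 of the 5 held 81.31% of their counts. At day 4 the log2 fold change was -1.42 ± 0.51 (adjusted p = 0.127) and at day 7 -1.06 ± 0.5 (adjusted p = 0.245); without the day 0 b1 set both passed, at -1.91 (adjusted p = 0.00241) and -1.55 (adjusted p = 0.0158). Mdm2 was detected in 87.04 to 100% of cells up to day 4, in 77.22% of the 79 cells of day 5 b2 (exact 95% interval 66.4 to 85.9%) and in 83.08% of the 65 cells of day 7 b2 (71.73 to 91.24%). At an expected count of 1 or more in place of a TPM of 1, it was in 92.41% and 92.31% of the cells of day 5 b2 and day 7 b2, against 94.44% at day 0 b2. These intervals, like all others here, cover counting error only, since reads without molecular identifiers are not independent molecules.

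Ccng1, whose product recruits phosphatase PP2A to Mdm2, moved with little spread between the sets of a day. It stood at 854.2 (b1) and 733.7 CPM (b2) at day 0, 636.3 at day 1, 479.4 and 583.6 at day 3, 313.9 at day 4, 150 at day 5 and 142.1 CPM at day 7. Over the 8 sets each later day was lower, but from day 5 to day 7 the log2 fold change was only -0.08. The 2 cells of day 7 b1 had a mean of 69.41 TPM, against 57.55 in day 5 b2 and 105.3 in the 5 cells of day 5 b1. Ccng1 fell by 2.4 ± 0.51 (SE) on the log2 scale at day 5 (edgeR, adjusted p = 0.000184) and fell by 2.48 ± 0.52 at day 7 (adjusted p = 8.55e-05). Both calls held when any 1 of the sets of days 0 and 3 was left out, but with all 10 sums the day 5 call was lost (-1.68, adjusted p = 0.118). Ccng1 also fell by 1.83 ± 0.5 from day 3 to day 5 (edgeR, adjusted p = 0.0185), where 1 of the 10 genes was called against 1.71% of all genes (0.643% higher and 1.07% lower). That step kept its size but not its call without the day 3 b1 set (-1.96, adjusted p = 0.265) or the day 3 b2 set (-1.68, adjusted p = 0.493). At day 4 the log2 fold change against day 0 was -1.34 ± 0.48 (edgeR, adjusted p = 0.129), and without the day 0 b2 set it passed, at -1.44 (adjusted p = 0.0266). Every cell of both day 0 sets had it. By day 5 it was detected in 72.15% of 79 cells (60.93 to 81.65%), and the median TPM of a cell was 21.86 against 320.9 and 260.7 in the sets of day 0.

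Btg2, an antiproliferative target that binds the CCR4-NOT deadenylase, stood at 219.5 (b1) and 610.3 CPM (b2) at day 0. It was at 128.3 CPM at day 1, 85.91 and 155.9 at day 3, 107.2 at day 4, 60.46 at day 5 and 129.4 CPM at day 7. Every later set lay below both day 0 sets. Btg2 fell by 1.78 ± 0.42 (SE) on the log2 scale at day 3 (edgeR, adjusted p = 0.00143), by 1.95 ± 0.55 at day 4 (adjusted p = 0.0159), by 2.78 ± 0.57 at day 5 (adjusted p = 8.9e-05) and by 1.68 ± 0.54 at day 7 (adjusted p = 0.0307). The step was already there at day 1 in size, at -1.69 ± 0.54, but missed the threshold (adjusted p = 0.103), and without the day 0 b1 set it passed (-2.25, adjusted p = 0.00124). The high day 0 b2 set carried part of the fall: without it the edgeR values were -0.86 at day 3 (adjusted p = 0.385), -1.03 at day 4 (adjusted p = 0.422) and -0.76 at day 7 (adjusted p = 0.484). Leaving out the day 3 b1 set ended the calls at days 3, 4 and 7 (adjusted p = 0.476, 0.0837 and 0.109), and leaving out the day 3 b2 set those at days 4 and 7 (adjusted p = 0.0924 and 0.117). At day 5 the call held without any 1 of these 4 sets, but with all 10 sums the value was -0.55 (adjusted p = 0.908). Btg2 was detected in 85% and 94.44% of the cells of the day 0 sets, in 53.16% of those of day 5 b2 (41.6 to 64.49%) and in 50.77% of those of day 7 b2 (38.07 to 63.4%). In these late sets the median TPM of a cell was 2.08 and 2.19, while the highest cells reached 363.68 and 940.21 TPM.

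Fas, the receptor through which Fas ligand triggers cell death, was the target found in the fewest cells. It stood at 36.62 (b1) and 56.56 CPM (b2) at day 0, 6.683 at day 1, 2.241 and 12.93 at day 3, 5.559 at day 4, 2.046 at day 5 and 9.764 CPM at day 7. The later sets all lay below both sets of day 0. Fas fell by 4.51 ± 1.35 (SE) on the log2 scale at day 5 (edgeR, adjusted p = 0.0217). Without the day 0 b2 set that value was -4.16 (adjusted p = 0.0686), and without the day 3 b2 set -4.51 (adjusted p = 0.0681). With all 10 sums it was -1.36 (adjusted p = 0.869). At the other days the log2 fold change lay between -3.07 ± 1.24 (day 4, adjusted p = 0.23) and -2.25 ± 1.18 (day 7, adjusted p = 0.324), and none passed. Fas was detected in 40% and 46.3% of the cells of day 0, 27.59% at day 1, 13.11% and 17.24% at day 3, 18.64% at day 4, 3.797% at day 5 (0.7901 to 10.7%) and 9.231% at day 7. At day 5 these were 3 cells of 79, and 1 of them held 72.51% of the summed Fas counts.

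**Figure D2:**
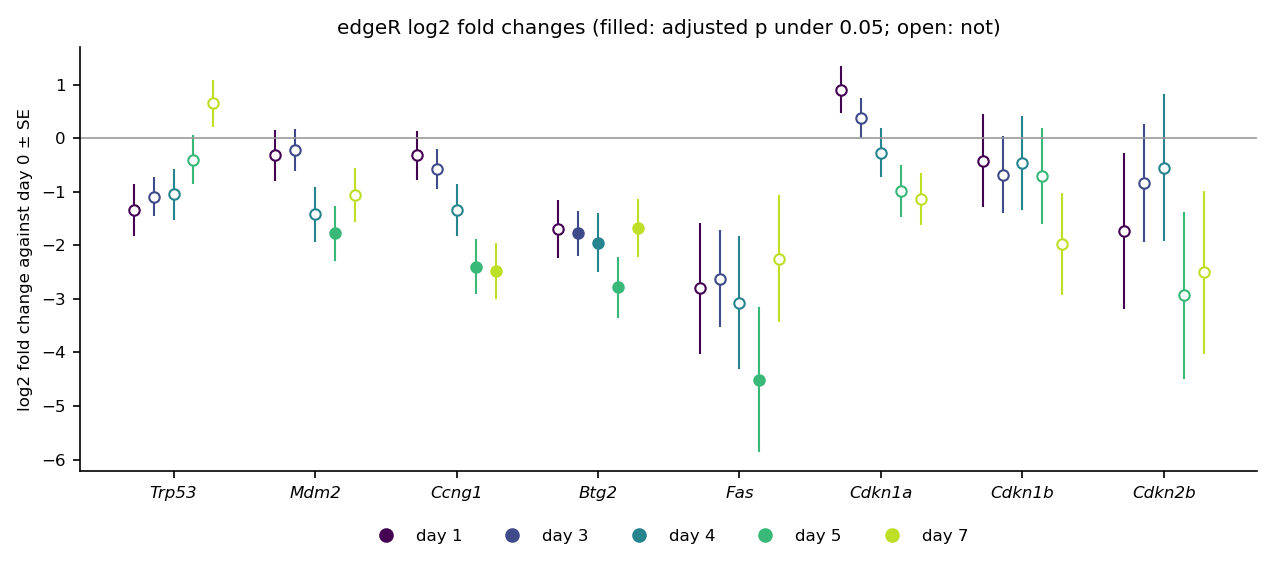
edgeR log2 fold change against day 0 (vertical axis) of 8 of the 10 genes at days 1, 3, 4, 5 and 7, with bars of ± 1 SE; filled points passed an adjusted p of 0.05 and open points did not. The filled points belong to Btg2 at days 3 to 7, Ccng1 at days 5 and 7, and Mdm2 and Fas at day 5, all below 0; Cdkn2a and Cdkn2c are left out because few cells had them.

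Cdkn1a, which encodes the CDK inhibitor p21, stood at 352.1 (b1) and 550.9 CPM (b2) at day 0, 840.6 at day 1, 458.8 and 704.3 at day 3, 375 at day 4, 227.1 at day 5 and 204.5 CPM at day 7. The day 1 set was the highest of the 8, and the sets of days 5 and 7 lay below all others. Cdkn1a differed between days (edgeR quasi-likelihood test, adjusted p = 0.0061), without a call in any single comparison. Its log2 fold change against day 0 was 0.9 ± 0.44 (SE) at day 1 (adjusted p = 0.661), -0.99 ± 0.48 at day 5 (adjusted p = 0.312) and -1.14 ± 0.48 at day 7 (adjusted p = 0.16). Without the day 0 b1 set the values at days 5 and 7 passed, at -1.28 (adjusted p = 0.0458) and -1.43 (adjusted p = 0.0159). From day 3 to day 5 it was -1.36 ± 0.49 (adjusted p = 0.175), and it passed without day 0 b1 (adjusted p = 0.0188) or day 0 b2 (adjusted p = 0.0205). The call of any difference was lost without the day 3 b1 set (adjusted p = 0.101) or the day 3 b2 set (adjusted p = 0.237). Cdkn1a was detected in every cell of days 1, 3 and 4, and in 83.54% (73.51 to 90.94%) and 89.23% (79.06 to 95.56%) of those of days 5 and 7. Median TPM per cell was 397.4 and 569.1 at day 0, 794.9 at day 1, 581.6 and 912.3 at day 3, 352.2 at day 4, 140.7 at day 5 and 182.8 at day 7. By this measure day 3 b2, not day 1, was the highest set.

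Cdkn1b encodes p27, the related inhibitor that holds CDK2 in check in resting cells. It stood at 56.86 (b1) and 17.11 CPM (b2) at day 0, 27.68 at day 1, 20.29 and 26 at day 3, 26.75 at day 4, 22.59 at day 5 and 9.458 CPM at day 7. The sets of days 1 to 5 all lay between the day 0 sets, and the day 7 set lay below both. No comparison passed (any difference, edgeR adjusted p = 0.97), and the log2 fold change at day 7 was -1.97 ± 0.95 (SE; adjusted p = 0.263). It was widely detected, in 66.15 to 100% of the cells of the 8 sets.

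The Ink4 genes encode inhibitors of CDK4 and CDK6, and Cdkn2a and Cdkn2b are neighbours at 1 locus that is known to switch on in fibroblasts under long culture. Cdkn2b (p15) stood at 15.97 (b1) and 18.58 CPM (b2) at day 0, 5.197 at day 1, 4.453 and 14.88 at day 3, 11.76 at day 4, 2.26 at day 5 and 3.054 CPM at day 7. All later sets lay below the day 0 sets, but the 2 sets of day 3 lay far apart. Cdkn2b passed no edgeR comparison: the log2 fold change was -2.93 ± 1.56 (SE; adjusted p = 0.405) at day 5 and -2.5 ± 1.52 (adjusted p = 0.441) at day 7. DESeq2 called it at day 5, at -2.95 (adjusted p = 0.0227), the only call of Cdkn2b among the 14 alternatives. It was detected in 55% and 42.59% of the cells of the day 0 sets and in 11.39% (5.344 to 20.53%) and 10.77% (4.441 to 20.94%) of those of days 5 and 7.

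Cdkn2a counts pool the p16Ink4a and Arf transcripts, which share exons. Its sums were between 0.1078 (day 0 b1) and 0.4586 CPM (day 3 b1), the lowest of the 10 genes in every set, and its sum rested on 6 counts at day 0 b1 and on at most 97 elsewhere. It was detected in 46 of 461 cells (9.978%, 7.398 to 13.08%), and in the 8 larger sets from 3.704% at day 0 b2 to 15.38% at day 7 b2. A single cell held 83.33% of the counts of the day 0 b1 set, 85.25% of those of day 0 b2 and 87.63% of those of day 3 b1. Cdkn2c (p18) was also rare, with sums from 0.5388 (day 0 b1) to 5.268 CPM (day 7 b2) and detection in 60 of 461 cells (13.02%). One cell held 80.98% of its counts at day 3 b2 and all of them at day 0 b1. Neither gene was called in any comparison.

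**Figure D3:**
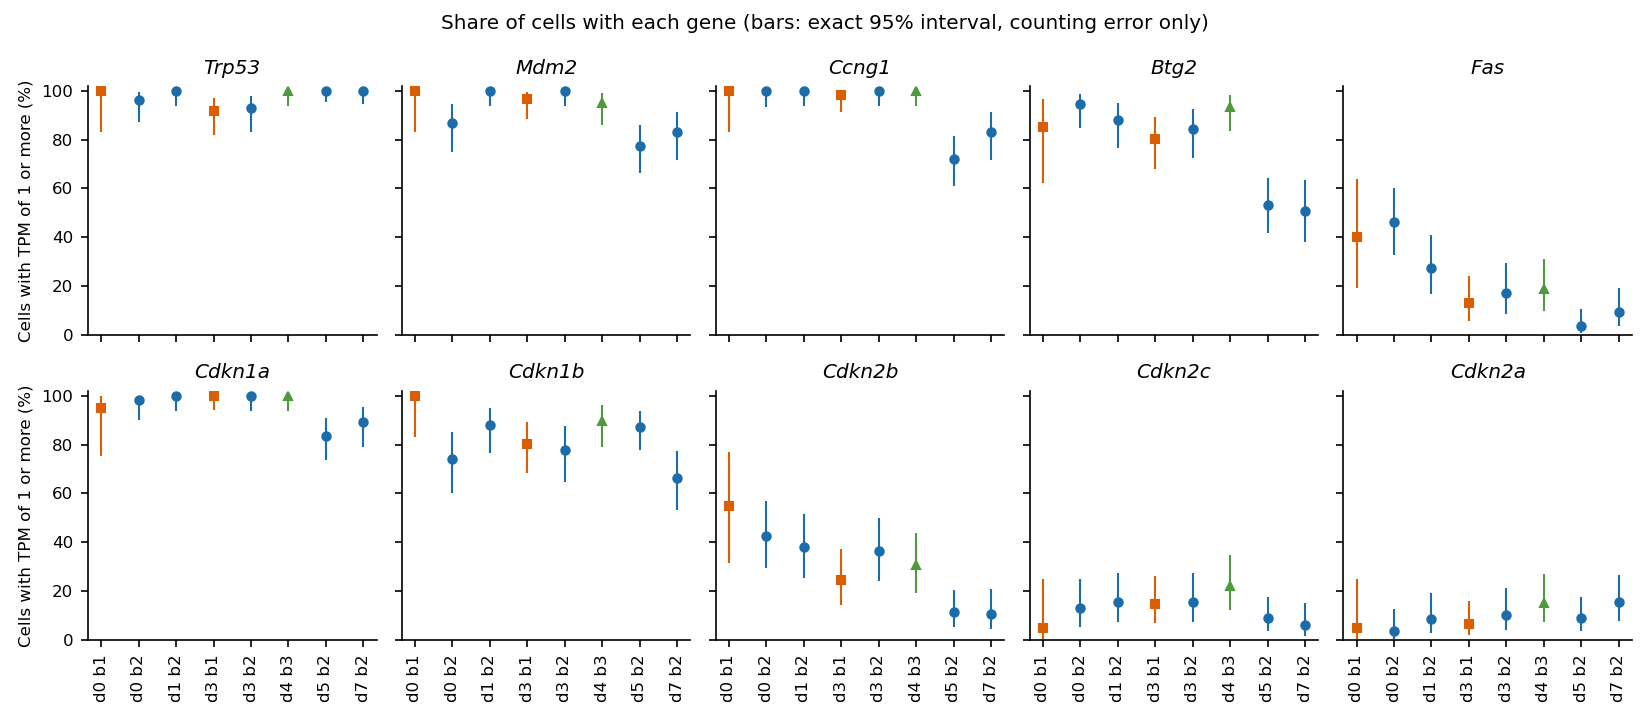
Share of the cells of each of the 8 larger sets with a TPM of 1 or more for each of the 10 genes (vertical axis, percent), with exact 95% binomial intervals that cover counting error only; d0 to d7 are the days and b1 to b3 the title prefixes. Ccng1 was in every cell of day 0 and in 72.15% of those of day 5 b2, Fas went from 46.3% at day 0 b2 to 3.797%, and Cdkn2a stayed at or under 15.38%.

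Read by comparison with day 0, 0 of the 10 genes were called at day 1, where 1.18% of all genes were called (0.934% higher and 0.25% lower). At day 3 it was 1, against 3.14% of all genes (2.1% higher and 1.04% lower), and at day 4 also 1, against 3.03% (2.07% higher and 0.965% lower). At day 5 it was 4, against 4.73% of all genes (2.56% higher and 2.18% lower), and at day 7 it was 2, against 6.6% (3.55% higher and 3.05% lower). Every called member was lower than at day 0. At day 1, 4 of the 10 had an unadjusted edgeR p under 0.05, against 7.13% of all genes. There DESeq2 called 0 of the 9 members it gave an adjusted p, and 716 of 22378 genes. As limma called 0 of all 17437 genes at day 1, its 0 among the 10 says nothing about them. Between day 5 and day 7 edgeR called 0 as well, against 0.554% of all genes (0.103% higher and 0.451% lower). DESeq2 called 0 of 9 members there, and 472 of 22378 genes. With limma on log2 mean TPM it was 0 of the 10, beside 0 of 17437 genes with 1 added and 195 with 0.1 added. Between these days 1 gene, Trp53, had an unadjusted edgeR p under 0.05 (4.2% of all genes), with a log2 difference of 1.05 ± 0.52 (SE). The median log2 fold change of the 10 genes was -0.68, -0.63, -0.8, -1.39 and -1.41 at days 1, 3, 4, 5 and 7, beside a median of all genes of 0 at each day but day 3, where it was 0.11. The comparisons with day 0 share the same day 0 sets. The fall of the targets went along with the loss of fibroblast markers and the gain of pluripotent cell markers given above. Endothelial marker sums were also higher from day 1 on, and the neural marker sum at day 7. The part of these changes in the result was not tested.

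Within prefix b2, which has sets of days 0, 1, 3, 5 and 7 and gives no test, the log2 difference in CPM of day 5 minus day 0 was -2.29 for Ccng1, -3.34 for Btg2, -2.27 for Mdm2, -4.78 for Fas, -1.28 for Cdkn1a and -0.61 for Trp53. For day 3 minus day 0 both prefixes can be read. Btg2 gave -1.35 in b1 and -1.97 in b2, Fas -4.02 and -2.13, Trp53 -1.28 and -0.96, and Cdkn1a 0.38 and 0.35, so each of these moved the same way in both prefixes.

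On the TPM scale, which allows for transcript length, the mean level per cell at day 0 b2 ran from Cdkn1a (694.3 ± 617.9, SD over 54 cells) and Trp53 (560.4 ± 449) through Btg2 (243.7 ± 281.6), Mdm2 (242.1 ± 299.3) and Ccng1 (238.3 ± 122.5) to Fas (45.69 ± 87.3). Below these stood Cdkn2b (16.64 ± 41.55), Cdkn1b (6.77 ± 9.753), Cdkn2c (2.166 ± 8.555) and Cdkn2a (0.7219 ± 4.702). The means of Btg2, Mdm2 and Ccng1 lay closer together than their SD over cells, as did those of Cdkn1a and Trp53. An SD over cells does not test such a difference. Median TPM was 115.9 for Btg2, 136.8 for Mdm2 and 260.7 for Ccng1, and 569.1 for Cdkn1a and 504.1 for Trp53. At day 7 b2 Trp53 led with 1029 ± 688.6 TPM (65 cells), followed by Cdkn1a (354.6 ± 493.5), Mdm2 (102.4 ± 145.6), Btg2 (67.69 ± 162.4) and Ccng1 (56.61 ± 65.51). From Mdm2 to Ccng1 the day 7 means also lay closer together than their SD over cells. The medians there were 40.88 TPM for Mdm2, 2.19 for Btg2 and 30.35 for Ccng1. Of the 10 genes, a cell of the day 0 sets had a median of 7 and a cell of the day 5 b2 and day 7 b2 sets a median of 5.

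**Figure D4:**
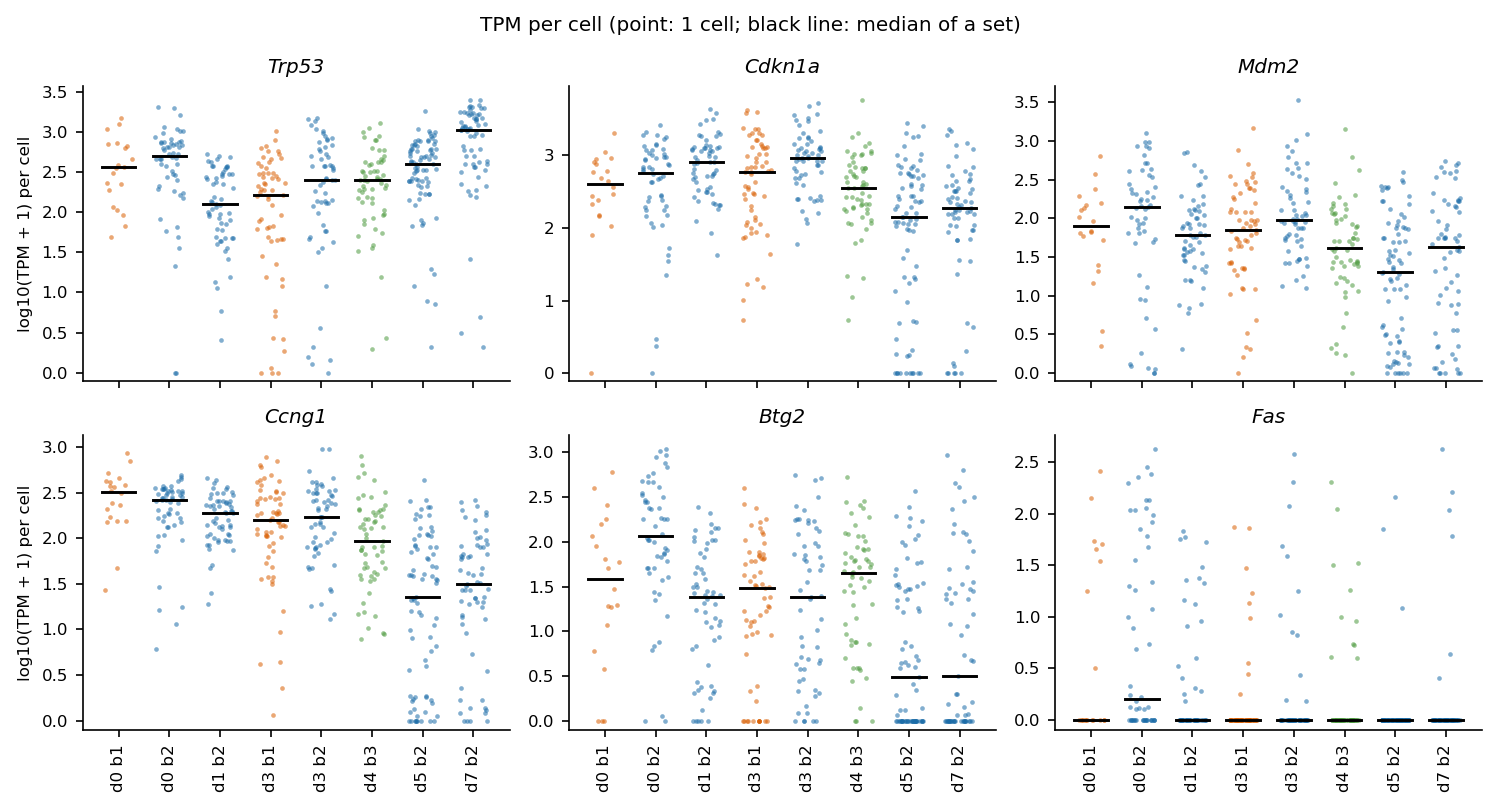
TPM per cell of Trp53, Cdkn1a, Mdm2, Ccng1, Btg2 and Fas as log10(TPM + 1) on the vertical axis, with 1 point per cell and a black line at the median of each set; d0 to d7 are the days and b1 to b3 the title prefixes. The median of Ccng1 went from 260.7 TPM at day 0 b2 to 21.86 at day 5 b2, where many cells lie at or near 0, and that of Trp53 reached 1054 TPM at day 7 b2.

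Within sets, cells high in 1 of Cdkn1a, Ccng1, Mdm2 and Fas tended to be high in the others. Spearman's rho across the cells of a set between Cdkn1a and Ccng1 was 0.445 and 0.32 at day 0, 0.456 at day 1, 0.536 and 0.257 at day 3, 0.592 at day 4, 0.437 at day 5 and 0.39 at day 7, positive in all 8 sets with a median of 0.441. Between Mdm2 and Ccng1 the median was 0.319 and the range 0.259 to 0.533. Between Cdkn1a and Mdm2 it was 0.247, from 0.052 to 0.603. Fas was also positively related to each in all 8 sets, with a median of 0.318 for Ccng1, 0.275 for Mdm2 and 0.222 for Cdkn1a. These are descriptions over 20 to 79 cells that share a library preparation and differ in depth. After every cell was thinned to 300000 counts, an alternative added after the data had been seen, the medians of the 3 pairs without Fas were 0.406, 0.323 and 0.284. Among the 4578 partner genes detected in at least 50% of the cells of every set, a limit also chosen after values had been seen, Ccng1 ranked 1 for Mdm2 and 2 for Cdkn1a by median rho. Cdkn1a and Ccng1 ranked 1 and 2 for Btg2, at 0.33 and 0.321. The day 0 sets went against this: Btg2 had a rho of -0.342 with Cdkn1a in b1, and of -0.104 (b1) and -0.181 (b2) with Ccng1. Trp53inp1, a p53 target outside the 10 that promotes autophagy and death, ranked 3 for both Cdkn1a (0.396) and Mdm2 (0.292). Over all partner genes the median rho of Cdkn1a was -0.011 and that of Mdm2 0.002. Other p53 targets among the partners were mixed. With Cdkn1a, the 6 widely detected targets of arrest and repair, Trp53inp1 among them, had a median of 0.177, and 5 of them lay above 0. The 5 of cell death had a median of 0.013, and 3 of them lay above 0, while Bid (-0.143) and Siva1 (-0.108) lay below.

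Trp53 mRNA had medians near or below 0 with the targets among the 10 genes. Its rho with Cdkn1a was between -0.242 and 0.061, with a median of -0.136 and a rank of 4294 among 4578 partners. With Ccng1 the median was -0.067 and with Mdm2 0.024, each with both signs among the 8 sets, and with Btg2 and Fas it was -0.078 and -0.128. Some p53 targets outside the 10 lay higher, among them Bax (0.256, rank 255) and Siva1 (0.227, rank 387). The 5 widely detected targets of cell death had a median of 0.133 and the 6 of arrest and repair one of 0.004, beside 0.04 for all partners. The partners ranked highest for Trp53 were Eif5a (a translation factor, 0.529), Tuba1b (an alpha-tubulin, 0.49) and Rack1 (a ribosome-bound scaffold protein, 0.475). Its rho with the cell's total counts had a median of 0.292, against -0.077 for Cdkn1a and 0.009 for Ccng1. With Mki67, a proliferation marker, the median rho was 0.206 for Trp53, -0.163 for Cdkn1a, -0.19 for Btg2 and -0.12 for Ccng1, and that of Ccng1 was below 0 in all 8 sets. With Pou5f1 the medians were 0.14 for Trp53, -0.18 for Cdkn1a, -0.166 for Ccng1 and -0.166 for Btg2, although only 1 cell of each day 0 set had Pou5f1. For Trp53 the rho with Pou5f1 was 0.286 at day 3 b2, 0.385 at day 4, 0.53 at day 5 and 0.458 at day 7, and between -0.338 and -0.005 in the other 4 sets. In thinned cells the median rho of Trp53 was -0.146 with Cdkn1a, -0.091 with Ccng1 and 0.014 with Mdm2. No other pair with Trp53 was thinned, and the part of total counts in the other values was not tested.

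**Figure D5:**
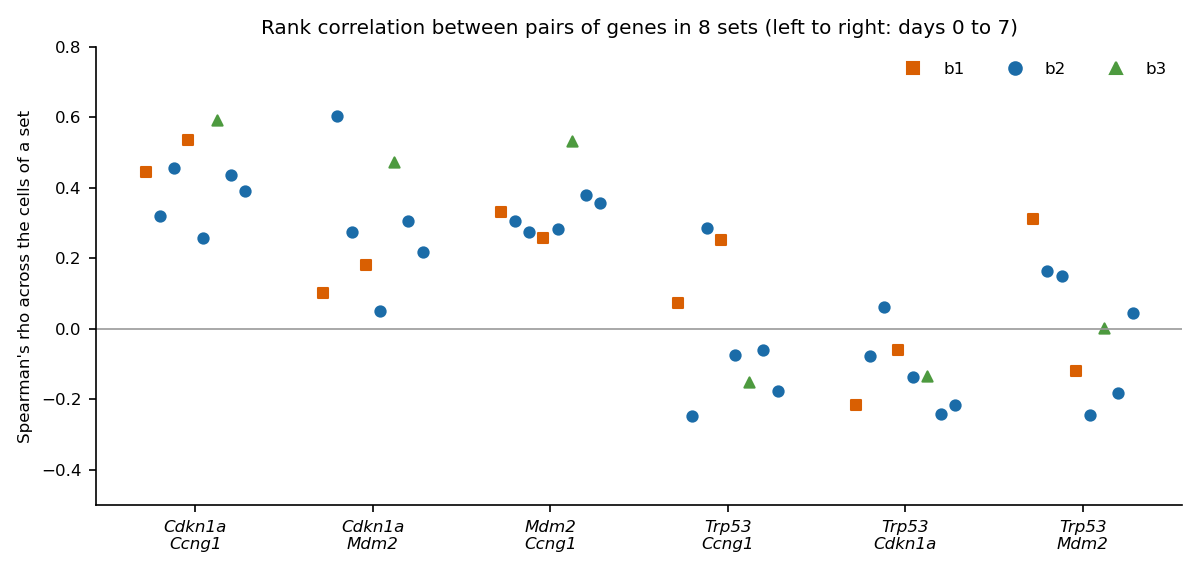
Spearman's rho across the cells of a set (vertical axis) for 6 pairs among Trp53, Cdkn1a, Ccng1 and Mdm2, with 1 point per set, ordered from day 0 to day 7 within a pair and shaped by title prefix. The 3 pairs of targets lie above 0 in all 8 sets, while the pairs with Trp53 lie on both sides of 0.

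Of the other genes of the pathway few were called, and those named for each list follow a fixed rule on size and level. Their counts stand beside the shares of all genes given above, at day 7 3.55% higher and 3.05% lower. Of 20 further genes listed as p53 targets of arrest and repair, 3 rose and 1 fell at day 7 against day 0. The median log2 value of the list was 0.47. At day 5, 2 rose and 0 fell (median 0.4). Whether each listed gene responds to p53 in these cells was not tested. Ddb2, which recognises ultraviolet damage, rose from 0.1437 and 0.09924 CPM at day 0 to 21.07 CPM at day 5, a log2 change of 7.45 ± 1.67 (SE; edgeR, adjusted p = 0.000466). Rrm2b, the p53-inducible ribonucleotide reductase subunit, rose by 2.16 ± 0.5 at day 1 (adjusted p = 0.00345), from 28.65 and 62.21 to 202.6 CPM, and was also called at day 4 (2.09 ± 0.5, adjusted p = 0.00239) and day 5 (2.45 ± 0.5, adjusted p = 8.58e-05). At day 3 it was not (0.78 ± 0.43, adjusted p = 0.503), with sets of 26.8 and 128.8 CPM, nor at day 7 (1.07 ± 0.51, adjusted p = 0.252). Tigar, a fructose bisphosphatase, rose by 2.95 ± 0.86 at day 7 (adjusted p = 0.0135), as did Gtse1, named after its value was seen, by 1.66 ± 0.52 (adjusted p = 0.0254). Plk2 fell by 1.73 ± 0.55 at day 7 (adjusted p = 0.0274). Trp53inp1 and Aen, the most abundant of those without a call, had log2 fold changes of 0.7 ± 0.48 and -0.58 ± 0.58 at day 7. Uncalled is not unchanged: at day 5 Ephx1 stood at -1.56 ± 0.74 (adjusted p = 0.301), Polk at -1.53 ± 0.79 (adjusted p = 0.377) and Plk2 at -1.56 ± 0.54 (adjusted p = 0.0718), all 3 chosen after their values were seen.

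Of 12 p53 targets of cell death, 1 was called in each of days 3, 4, 5 and 7. Pmaip1, which encodes the death promoter Noxa, rose by 3.09 ± 0.58 (SE) at day 3 (edgeR, adjusted p = 1.21e-05) and by 4.31 ± 0.65 at day 4 (adjusted p = 1.35e-08). It stood at 7.705 and 10.51 CPM at day 0, 180.2 at day 4 and 14.6 at day 7. The receptor gene Eda2r fell by 2.59 ± 0.64 at day 5 (adjusted p = 0.00239), and Tnfrsf10b, a receptor for the ligand TRAIL, by 1.81 ± 0.55 at day 7 (adjusted p = 0.02). Bcl2l1 and Siva1, with no call, stood at -0.74 ± 0.53 and 0.7 ± 0.52 at day 7. Of 15 p53 regulators only Usp7, a deubiquitinase of Mdm2 and p53, was called: it rose by 2.06 ± 0.49 at day 7 (adjusted p = 0.000881), from 63.58 and 109 to 360.8 CPM. Mdm4, the Mdm2 homologue, was at 1.29 ± 0.49 (adjusted p = 0.104) and Chek2 at -0.49 ± 0.57 (adjusted p = 0.786).

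Of the 3 other CDK inhibitor genes, Cdkn1c (p57) stood at 1734 and 595.1 CPM at day 0, 2171 at day 1, 2206 and 1016 at day 3, 2262 at day 4, 367.2 at day 5 and 185.4 CPM at day 7. Cdkn1c fell by 1.66 ± 0.47 (SE) at day 5 (edgeR, adjusted p = 0.0111) and fell by 2.65 ± 0.49 at day 7 (adjusted p = 6.27e-06), while Cdkn2d and Cdkn3 were not called. Among 17 CDK and RB genes, 2 of the D-type cyclin genes were called at day 7, while the third, Ccnd3, stood at -0.04 ± 0.49 (adjusted p = 1). Ccnd2 fell by 2.33 ± 0.5 (adjusted p = 0.000152) and Ccnd1 by 1.63 ± 0.53 (adjusted p = 0.0353), and Cdk6 and Cdk4 stood at -1.25 ± 0.48 and -0.11 ± 0.45. Of 12 proliferation genes, 3 rose at day 7: Mcm5 by 2.95 ± 0.51 (adjusted p = 7.96e-07), Mcm2 by 2.59 ± 0.52 (adjusted p = 4.32e-05) and Bub1 by 2.38 ± 0.61 (adjusted p = 0.00275). Rrm2 and Top2a, the most abundant without a call, stood at 0.12 ± 0.45 and 1.06 ± 0.45.

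Of 12 repressors of the Cdkn2a and Cdkn2b locus, 3 rose and 1 fell at day 7. The Polycomb genes Suz12 and Phc1 rose by 2.27 ± 0.5 (SE; edgeR, adjusted p = 0.00033) and 2.27 ± 0.65 (adjusted p = 0.011), and Tbx3 by 2.02 ± 0.57 (adjusted p = 0.0102), while Phc2 fell by 2.07 ± 0.57 at day 4 (adjusted p = 0.0132). Kdm2b, named after its value was seen, fell by 1.72 ± 0.52 at day 7 (adjusted p = 0.0198). It belongs to the published cocktail, and the counts do not tell introduced from native transcripts. Ezh2 and Eed, without a call against day 0, stood at 1.37 ± 0.5 and -0.03 ± 0.53 at day 7. Of 12 activators of that locus or of Cdkn1a, Foxo1 rose by 3.36 ± 0.92 (adjusted p = 0.00712) and Ets1 fell by 3.07 ± 0.71 (adjusted p = 0.000648) at day 7. Foxo3 and Kdm6b stood at -1.15 ± 0.54 and -0.93 ± 0.58.

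Of 10 genes known from senescent cells, 5 fell at day 7 and none rose. The chemokine gene Ccl2 fell by 7.55 ± 0.73 (SE; edgeR, adjusted p = 6.01e-22), from 97.62 and 1401 to 3.999 CPM. The chemokine gene Cxcl1 fell by 9.4 ± 1.87 (adjusted p = 3.25e-05), from day 0 sets of 0.8082 and 38.95 CPM. Hmga2 and Igfbp5, named after their values were seen, also fell: Hmga2 fell by 2.63 ± 0.51 (adjusted p = 1.52e-05) and Igfbp5 fell by 4.15 ± 0.56 (adjusted p = 3.12e-11). The protease gene Mmp3 had 0 counts in both day 0 sets, 22.72 CPM at day 1, 0.2647 and 19.91 at day 3 and 0 again at days 5 and 7. Glb1 and Igfbp3 were not called.

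Over the 8 sets, the gene whose course was most like that of Ccng1 among 8752 compared was Phf20l1, a chromatin reader gene, with a Pearson r of 0.994 in log2 CPM, and Serinc1 came next at 0.994. Cxxc5 (0.98) and Mtdh (0.976) were closest to Cdkn1a, and Srsf5 (0.972) and the mitophagy gene Bnip3 (0.972) to Trp53. Cdc42ep3 (0.969) and Uxt (0.967) were closest to Mdm2, Tmem59 (0.976) and Rnft1 (0.975) to Btg2, and Rnft1 (0.975) and Pak2 (0.965) to Fas. For the inhibitors, Casd1 (0.929) and Iars2 (0.926) were closest to Cdkn1b, and Acadsb (0.952) and Trafd1 (0.939) to Cdkn2b. Nfatc3 (0.972) and Syt14 (0.967) were closest to Cdkn2c, and Tmem254c (0.978) and Hsd17b4 (0.933) to Cdkn2a. These values are the highest of 8752 for each gene, over 8 sets that share days and prefixes. None of the 10 genes was among the 2 closest of another. Cdkn2a, Cdkn2b and Cdkn2c could not be, since only genes with a mean of at least 10 CPM were compared.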

How the data were processed

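Each single cell was profiled by full-length RNA-seq on the Fluidigm C1 system. The authors deposited a table of expected counts and a table of TPM, made with bcl2fastq and RSEM 1.2.22 per the submitters' processing notes. Any aligner, build and gene models used were not given in the sources used here. Of the expected count values in the deposited table, 9.108% were not whole. No 2 cells had identical columns, and 31426 of 31673 identifiers had a symbol.

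Per set (1 day and title prefix), expected counts were summed, rounded, and fitted with edgeR 4.0.16 in R 4.3.3 (TMM, trended dispersion, quasi-likelihood). The 8 sets of at least 10 cells entered the fit, with day as the only term. A prior count of 2 was set for log2 CPM (differences between sets and similar genes), not for the fitted fold changes. Each edgeR SE is the absolute log2 fold change divided by the square root of the F statistic. The fit had 2 residual degrees of freedom, from days 0 and 3. Its prior degrees of freedom were infinite, so each gene's spread was taken from the trend over genes. Alternatives were DESeq2 1.42.0, limma 3.58.1 on log2(mean TPM + 1) or with 0.1, other scaling, filters, thinning, left-out cells and sets, and title prefix as a block. Whether the prefix pairs sets is not settled. The deviations of same-prefix sets at days 0 and 3 had r = 0.057 over 22378 genes, but 2 sets per day cannot decide this. In log2 CPM, b2 minus b1 at days 0 and 3 was 0.65 and 0.62 for Cdkn1a and 1.24 and 0.89 for Mdm2. It changed sign between these days for Cdkn1b, Cdkn2a and Ccng1. Shares of cells used a TPM of 1 with exact Clopper-Pearson 95% intervals. The script was tested on simulated data.

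From each list the text names up to 4 genes with the largest change among those called against day 0 and up to 2 of the most abundant without a call. Similar genes are the 2 with the highest r among genes with a mean of at least 10 CPM. The members and lists were chosen with earlier results of these data known. The values of 1 listed gene are not reported here.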

Additional observations from a re-analysis of the deposited data

Results flagged for a closer look

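Day 3 minus day 0 in log2 CPM had opposite signs in the prefixes for 3 of the 10 genes, each with 1 set per day and prefix, and this difference was not tested. Cdkn1b gave -1.49 in b1 and 0.60 in b2, Cdkn2a 1.96 in b1 and -1.26 in b2, and Mdm2 0.02 in b1 and -0.33 in b2. Cdkn2a rests on few cells, with 83.33% of its day 0 b1 counts and 87.63% of its day 3 b1 counts in 1 cell each.

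The sets that entered no comparison, day 5 b1 with 5 cells and day 7 b1 with 2, held mean levels above every day 0 set for 3 genes. At day 5 b1 the mean was 1242 TPM for Cdkn1a, 364.4 TPM for Mdm2 and 2.956 TPM for Cdkn2a, and 1 cell held 90.19%, 81.31% and 88.89% of the respective counts. The median over the 5 cells was 152.2 TPM for Cdkn1a and 155.5 TPM for Mdm2. At day 7 b1 the mean of Cdkn2a was 0.89 TPM, all of it in 1 of 2 cells.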

How the results depend on the processing

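The number of the 10 genes called is small and moves with the processing. With all 10 sums, the sets of 5 and 2 cells included, 1 gene was called at day 7 and 0 in every other comparison, among them 0 for any difference. Of all 22314 genes, 352 were called at day 7 and 270 for any difference, against 1477 and 2076 of 22378 in the reported fit. limma on mean TPM with either pseudocount called 0 of the 10 in all comparisons. For any difference it called 0 of all 17437 genes, with 2741 (pseudocount 1) and 2495 (0.1) at an unadjusted p under 0.05. At day 7 it called 558 and 427 of them. For any difference DESeq2 called 4 (2891 of all 22378 genes), and leaving out cells with under 8000 genes called 3 (1266 of 21891). DESeq2 called 2 at day 3 and 1 at day 7 (1569 and 2904 of all genes). Median-of-ratios scaling called 2 at day 3 (743 of 22378). Thinning every cell called 0 at day 4 and 1 at day 7 (589 and 1357 of 18960). Leaving out cells with few genes called 0 at day 4, 2 at day 5, 1 at day 7 and 0 for day 5 against day 3. Over all genes these were 447, 720, 1005 and 180. Without the highest cell of each gene, 2 were called at day 4 and 1 at day 7 (633 and 1482 of 19019). Leaving out 1 set of days 0 or 3 gave 0 to 2 at days 1, 3 and 4, 2 to 5 at day 5, 1 to 4 at day 7, 0 to 3 for day 5 against day 3, 0 for day 7 against day 5, and 2 to 6 for any difference. Over all genes these fits called 145 to 440 at day 1, 261 to 793 at day 3 and 421 to 846 at day 4. They called 691 to 1271 at day 5, 918 to 1678 at day 7 and 1214 to 2724 for any difference. For day 5 against day 3 it was 161 to 690, and for day 7 against day 5 it was 69 to 221. The cause was not tested, and each left-out set also removes residual degrees of freedom.

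With the title prefix as a replicate block, which the data do not show to pair sets, 1 gene was called for any difference, 2 at day 5, 1 at day 7 and 0 elsewhere. Of all 22378 genes, 362 were called for any difference, 290 at day 5 and 432 at day 7. The block also gave Cdkn1b 0.08 at day 1, 0.03 at day 4 and 0.23 for day 5 against day 3, turning its sign.

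Other signs also turned. With all 10 sums, the log2 value against day 0 at day 5 was 0.74 for Mdm2 and 0.59 for Cdkn1a, and at day 7 -0.26 for Trp53. In the same setting day 5 against day 3 gave 0.93 for Mdm2, 1.24 for Fas, 1.2 for Btg2 and 0.20 for Cdkn1a, and day 7 against day 5 gave -2.75 for Mdm2, -1.82 for Fas, -1.83 for Btg2 and 0.02 for Cdkn1b. limma gave Mdm2 0.11 at day 3 with either pseudocount, and Cdkn1b 0.07 at day 3 and 0.17 at day 4 (pseudocount 1) or 0.10 and 0.20 (0.1). Without cells with few genes Cdkn2b was at 0.01 at day 4. Leaving out 1 set gave Cdkn1b -1.04 to 0.69 at day 1, -1.3 to 0.44 at day 3, -1.09 to 0.65 at day 4, -1.33 to 0.4 at day 5 and -0.2 to 0.16 for day 5 against day 3. It gave Mdm2 -0.81 to 0.43 at day 1 and -0.73 to 0.53 at day 3, and Cdkn1a -0.55 to 0.09 at day 4. Of these only Mdm2 at day 5 was called in the reported fit.

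Leaving out the highest cell moved 19 of 80 mean TPM values of the 8 sets by over 1.5 times: 7 of Cdkn2c, 5 of Fas, 4 of Cdkn2a and 3 of Cdkn2b. Cdkn2c at day 3 b2 went from 4.976 to 1.381 TPM, Cdkn2b at day 7 b2 from 4.414 to 1.971 and Fas at day 5 b2 from 2.867 to 1.05. Of the shares of cells, 33 of 240 moved past their interval at another detection limit, Cdkn1b most often. At an expected count of 1 Ccng1 was in 88.61% of the cells of day 5 b2. Fold changes of Cdkn2a and Cdkn2c are not given. The alternative fits were run over all genes, and gene by gene they are given here for members of the 10 alone.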
